A study of Saccharomyces cerevisiae with 12 samples.

Results

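The septin ring genes are CDC3, CDC10, CDC11, CDC12 and SHS1, which encode the septins of mitotic budding yeast, and GIN4, which encodes a protein kinase that binds septins and is needed for their normal organisation at the bud neck. They were taken by systematic gene name, 6 of the 7126 genes listed in the RNA-seq tables, and all 6 passed the filter of a mean of at least 1 FPKM (sequenced fragments scaled by transcript length and library size). The libraries came from Saccharomyces cerevisiae in 4 groups of 3 labelled biological replicates: MATα-playing-a cells (strain LBHY29) with α-factor, the same strain without it, MATa cells (strain MP 384) with α-factor, and MATa cells without it. Every culture grew to log phase at 30 °C in YPD medium with 0.1% bovine serum albumin, a first portion was harvested as the unstimulated sample, and what was left received 10 nM α-factor, the mating pheromone of MATα cells, for 2 h. The labels give each strain by name and mating type only and list no alleles. Because no culture was kept for the same 2 h without pheromone, the effect of α-factor and that of the added culture time cannot be told apart.

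Septins are GTP-binding proteins that join end to end into rods and filaments. In budding yeast they form a ring and then a collar at the neck between mother and bud, where they hold other proteins in place, limit diffusion along the cell cortex and take part in cytokinesis and in the checkpoint that delays mitosis when budding goes wrong. In cells that respond to pheromone, which stop dividing in G1 and grow a mating projection, septins are found at the base of that projection.

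The labels were checked against mating-type genes. STE2, the α-factor receptor gene, lay between 1651 and 1937 FPKM in stimulated and between 512 and 633 FPKM in unstimulated MATα-playing-a libraries, against 7759 to 8483 and 3254 to 4169 FPKM in the matching MATa libraries. STE6, MFA1, MFA2, AGA2 and ASG7, further a-cell genes, were also lower in MATα-playing-a under both treatments. AGA2 averaged 11.5 and 0 FPKM in stimulated and unstimulated MATα-playing-a cells, against 8718 and 1101 FPKM in MATa cells. STE6 averaged 31.9 and 25.6 FPKM, against 627 and 521 FPKM. The α-cell gene STE3 and both α-factor genes were listed at 0 in all 6 MATα-playing-a libraries. In MATa libraries STE3 lay between 8.40 and 25.6 FPKM, MF(ALPHA)2 between 67.9 and 109 FPKM, and MF(ALPHA)1 was at 0 with α-factor and between 3.64 and 8.52 FPKM without. SAG1, the α-agglutinin gene, lay between 1215 and 5595 FPKM in MATα-playing-a and between 98.4 and 124 FPKM in MATa libraries. BAR1, the gene of the protease that degrades α-factor, was listed at 0 in all 6 MATa libraries. In MATα-playing-a it lay between 46.4 and 54.7 FPKM in stimulated and between 27.8 and 28.2 FPKM in unstimulated libraries. Whether this difference bore on the strain comparisons under α-factor was not tested. FIG1, a pheromone-induced membrane protein gene, lay between 10174 and 11905 FPKM in the 6 stimulated libraries, against 11.1 to 22.7 FPKM in the 6 unstimulated ones.

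Under α-factor the septin ring genes did not move as one block. GIN4 fell 3.87-fold in MATα-playing-a and 3.74-fold in MATa, CDC10 rose 1.23-fold and 1.18-fold, and CDC11 and SHS1 fell by factors between 1.16 and 1.27. CDC12 fell 1.30-fold in MATα-playing-a and did not pass the test in MATa, and CDC3 did not pass in either strain. Of the 6 genes, 5 passed the threshold in the response of MATα-playing-a, 1 higher and 4 lower, and 4 passed it in the response of MATa, 1 higher and 3 lower. Calls were made with limma on log2(FPKM + 1) over 6608 genes, at a Benjamini-Hochberg adjusted p below 0.05. In the response of MATα-playing-a 68.9% of all tested genes were called, 29.8% higher and 39.1% lower, and in the response of MATa 66.6% were called, 28.5% higher and 38.1% lower. With the values scaled as deposited, the number of septin ring genes called stood close to the background of a response that touched most genes. The median log2 change was -0.22 over the 6 genes and -0.10 over all tested genes in MATα-playing-a, and -0.13 over the 6 genes and -0.09 over all tested genes in MATa. When libraries were rescaled by median ratios, which brought the median over all genes to -0.00 and -0.01 in MATα-playing-a and MATa, 2 septin ring genes were called in MATα-playing-a (1 higher, 1 lower) and 3 in MATa (1 higher, 2 lower). After that rescaling 67.7% of all tested genes were still called in MATα-playing-a (34.3% higher, 33.4% lower) and 65.6% in MATa (32.9% higher, 32.7% lower). In MATα-playing-a the septin ring genes that lost the call were SHS1, CDC12 and CDC11. Their limma adjusted p after rescaling was 0.0553, 0.0598 and 0.0822, so the 2 of 6 depends on where the threshold lies.

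**Figure D1:**
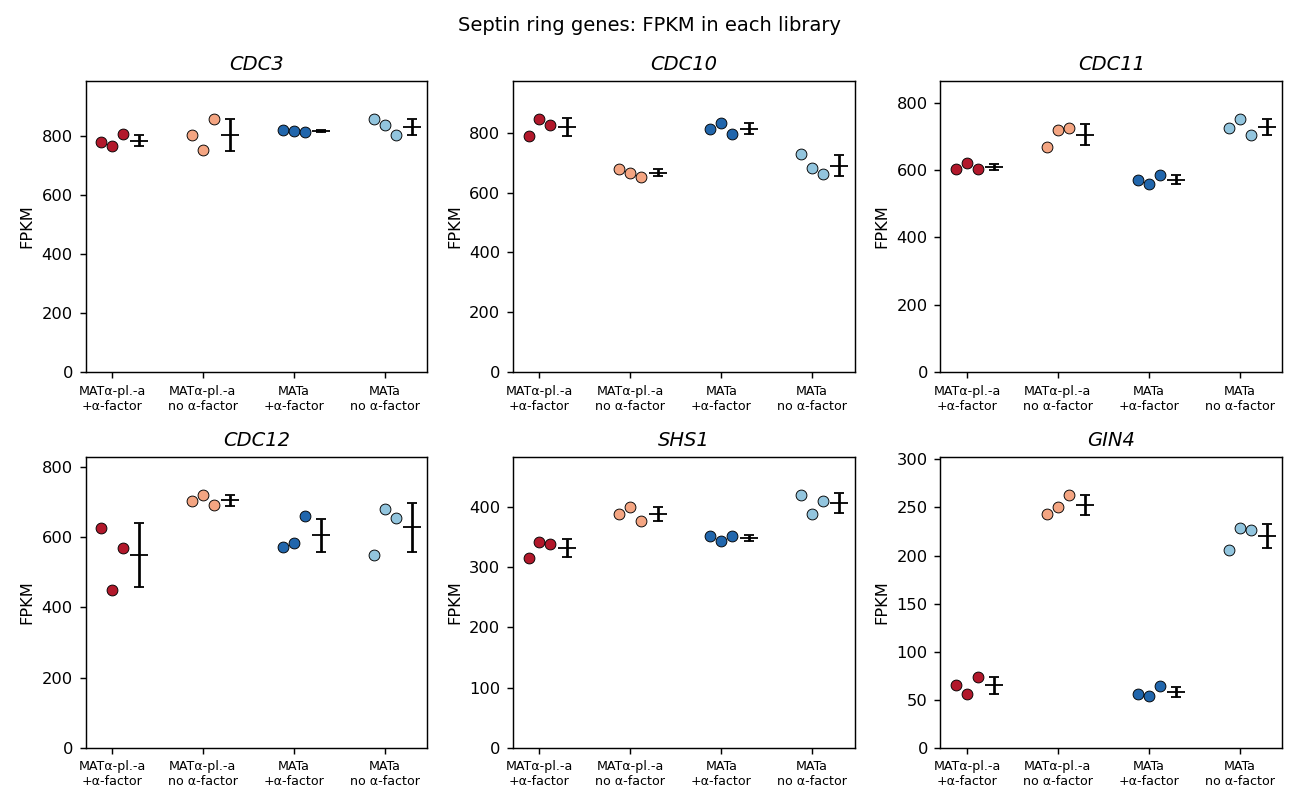
FPKM of each septin ring gene in every library (points) with the group mean ± SD (bars), for stimulated and unstimulated MATα-playing-a and stimulated and unstimulated MATa cells, n = 3 libraries a group. GIN4 lay between 54.1 and 73.6 FPKM in the stimulated libraries and between 206 and 263 FPKM in the unstimulated ones, while CDC3 overlapped between treatments in both strains.

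GIN4 (YDR507C) lies on chromosome IV, minus strand, at chrIV:1462358-1465786 in the R64 reference, whose coordinates equal those of the files for all 6 genes. The window from 250 bases before its start codon to base 50 of the coding sequence (R64, RefSeq, chrIV:1465737-1466036, minus strand) is shown with that of KCC4, the gene of the paralogous septin-associated kinase (chrIII:78912-79211, plus strand), and that of CDC10 (chrIII:118299-118598, minus strand), the gene that rose. Each is written 5′ to 3′ on the coding strand, in lower case, with matches to CNCGAAA or ACGCGT on either strand in capitals.
GIN4: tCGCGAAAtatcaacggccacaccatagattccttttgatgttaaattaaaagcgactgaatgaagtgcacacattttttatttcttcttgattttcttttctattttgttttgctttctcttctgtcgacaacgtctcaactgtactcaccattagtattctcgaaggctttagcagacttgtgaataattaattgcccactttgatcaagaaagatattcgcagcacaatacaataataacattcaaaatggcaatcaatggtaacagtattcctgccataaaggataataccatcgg
KCC4: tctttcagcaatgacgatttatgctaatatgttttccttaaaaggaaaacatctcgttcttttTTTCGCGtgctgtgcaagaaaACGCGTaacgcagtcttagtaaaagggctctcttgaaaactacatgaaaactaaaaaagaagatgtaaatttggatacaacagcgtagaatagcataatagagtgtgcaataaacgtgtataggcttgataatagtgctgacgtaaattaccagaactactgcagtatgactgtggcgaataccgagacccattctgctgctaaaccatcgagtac
CDC10: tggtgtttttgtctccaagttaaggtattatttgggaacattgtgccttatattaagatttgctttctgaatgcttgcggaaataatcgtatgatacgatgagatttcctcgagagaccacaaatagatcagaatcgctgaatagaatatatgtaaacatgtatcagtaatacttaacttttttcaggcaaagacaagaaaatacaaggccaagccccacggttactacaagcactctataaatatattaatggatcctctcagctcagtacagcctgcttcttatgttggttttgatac

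ACGCGT is the core bound by the G1/S factor MBF, CACGAAA that bound by the related factor SBF, and TGAAACA that bound by the pheromone-activated factor Ste12. CNCGAAA, a looser form that contains CACGAAA, was added after the first search. On both strands of 5979 such windows, ACGCGT was found in 3.08%, CACGAAA in 4.21% and TGAAACA in 7.51%, and in none of the 6 septin ring genes. CNCGAAA was found in 13.8% of the windows and in those of 2 septin ring genes: GIN4, as CGCGAAA starting 249 bases before the start codon, and SHS1, on the reverse strand 93 bases before it. KCC4 held ACGCGT 166 bases and a reverse CNCGAAA 187 bases before the start codon. Of the 37 septin partner genes counted later, 3 held ACGCGT, 3 held CACGAAA, 7 held TGAAACA and 9 held CNCGAAA. The 3 with CACGAAA (SPR28, GIC2 and SYP1) all rose in both strains. Those with ACGCGT were KCC4 and BNI5, which fell in both strains, and BNR1, which was not called. Of those with TGAAACA, ULP1 and CHS3 rose and BEM3 and SIZ1 fell in both strains. NIS1 rose and CLA4 fell in MATα-playing-a only, and HSL7 was not called. Of those with CNCGAAA, KCC4, HSL1, AXL2 and MYO1 fell in both strains. SPR28, GIC2, SYP1 and CHS3 rose, and HSL7 was not called. The windows of the falling partners SWE1, BUD4 and HOF1 held none of the motifs. A match is a description of letters and not a measured binding site.

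GIN4 had 65.0, 56.0 and 73.6 FPKM in stimulated and 243, 250.5 and 263 FPKM in unstimulated MATα-playing-a libraries. It had 56.2, 54.1 and 64.3 FPKM in stimulated and 206, 229 and 227 FPKM in unstimulated MATa libraries. Every stimulated library was below every unstimulated one in both strains. The mean was 64.9 ± 8.76 against 252 ± 10.2 FPKM in MATα-playing-a and 58.2 ± 5.41 against 220.4 ± 12.7 FPKM in MATa (SD, n = 3 each). The log2 change was -1.95 ± 0.10 (SE) in MATα-playing-a, a 3.87-fold lower level with an adjusted p of 2.6e-08 in limma, and -1.90 ± 0.10 in MATa, 3.74-fold lower with an adjusted p of 3.36e-08. Under all alternatives tried the adjusted p stayed between 1.1e-08 and 2.5e-05 in MATα-playing-a and between 1.7e-08 and 3.2e-05 in MATa. By log2 change GIN4 stood 132nd from the lowest of the 6608 genes in MATα-playing-a and 195th in MATa. In bulk RNA, fewer cells that carry a transcript and less of it per cell cannot be told apart.

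CDC10 (YCR002C, chromosome III, minus strand, 117380 to 118348) encodes the septin at the centre of the yeast rod. It had 788, 847 and 825 FPKM in stimulated and 678, 667 and 654 FPKM in unstimulated MATα-playing-a libraries. In MATa it had 813, 833 and 795 FPKM with α-factor and 728, 683 and 662 FPKM without. The stimulated libraries lay above all unstimulated ones in each strain. CDC10 rose 1.23-fold in MATα-playing-a (log2 0.30 ± 0.05, SE; limma adjusted p = 0.000428) and 1.18-fold in MATa (log2 0.24 ± 0.05; adjusted p = 0.00225).

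CDC3 (YLR314C, chromosome XII, minus strand, 762575 to 764137) encodes a septin that lies between Cdc10 and Cdc12 in the rod. It had 782, 769 and 807 FPKM in stimulated and 804, 753 and 859 FPKM in unstimulated MATα-playing-a libraries, and 822, 818 and 815 FPKM in stimulated and 858, 838 and 803 FPKM in unstimulated MATa libraries. The treatments overlapped in both strains. Its log2 change was -0.03 (95% interval -0.16 to 0.09; limma adjusted p = 0.621) in MATα-playing-a and -0.02 (-0.15 to 0.10; adjusted p = 0.722) in MATa.

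CDC12 (YHR107C, chromosome VIII, minus strand, 326813 to 328036) encodes the septin that sits next to the end subunits. It had 627, 449.9 and 570.4 FPKM in stimulated and 704, 722 and 691 FPKM in unstimulated MATα-playing-a libraries, so the stimulated libraries were all lower but differed widely among themselves. In MATa it had 572, 585 and 659.8 FPKM with α-factor and 549, 681 and 655 FPKM without, and the treatments overlapped. CDC12 fell 1.30-fold in MATα-playing-a (log2 -0.37 ± 0.12, SE; limma adjusted p = 0.0148), while its log2 change was -0.05 (95% interval -0.31 to 0.21; adjusted p = 0.729) in MATa. The call in MATα-playing-a was lost after rescaling by median ratios (log2 -0.28, adjusted p = 0.0598) and without stimulated MATα-playing-a replicate 2, the library at 449.9 FPKM (log2 -0.24, adjusted p = 0.055). The difference between the strains' responses was -0.32 (95% interval -0.69 to 0.04; adjusted p = 0.444), so the response of CDC12 was not shown to differ between strains.

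CDC11 (YJR076C, chromosome X, minus strand, 575354 to 576601) and SHS1 (YDL225W, chromosome IV, plus strand, 52445 to 54100) encode the septins that occupy the ends of the rods and take each other's place there. CDC11 had 603, 620.0 and 603 FPKM in stimulated and 668, 719.9 and 724 FPKM in unstimulated MATα-playing-a libraries, and 569, 558 and 586 FPKM in stimulated and 725, 751 and 705 FPKM in unstimulated MATa libraries. All stimulated libraries were below all unstimulated ones within each strain. CDC11 fell 1.16-fold in MATα-playing-a (log2 -0.21 ± 0.05, SE; limma adjusted p = 0.00404) and 1.27-fold in MATa (log2 -0.35 ± 0.05; adjusted p = 0.00012). After rescaling by median ratios the change in MATα-playing-a was -0.11 with an adjusted p of 0.0822, and the call was lost.

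SHS1 had 315, 341 and 339 FPKM in stimulated and 388, 401 and 377 FPKM in unstimulated MATα-playing-a libraries. In MATa it had 351, 344 and 352 FPKM with α-factor and 420.5, 388 and 411 FPKM without. Stimulated and unstimulated libraries did not overlap in either strain. SHS1 fell 1.17-fold in MATα-playing-a (log2 -0.23 ± 0.06, SE; limma adjusted p = 0.00329) and 1.16-fold in MATa (log2 -0.22 ± 0.06; adjusted p = 0.00435). Both calls were lost after rescaling by median ratios, at log2 -0.13 (adjusted p = 0.0553) and log2 -0.13 (adjusted p = 0.0606). Stimulated and unstimulated groups thus did not overlap for 5 of the 6 genes in MATα-playing-a, where 73.6% of all tested genes did not, and for 4 of 6 in MATa, where 69.5% did not. Summed FPKM was also lower in the stimulated libraries, at 5332586 to 5516177 FPKM against 5989653 to 6666550 FPKM in the unstimulated ones. The rescaling by median ratios above does not set these sums equal, and scaling each library to a common sum was not tried.

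**Figure D2:**
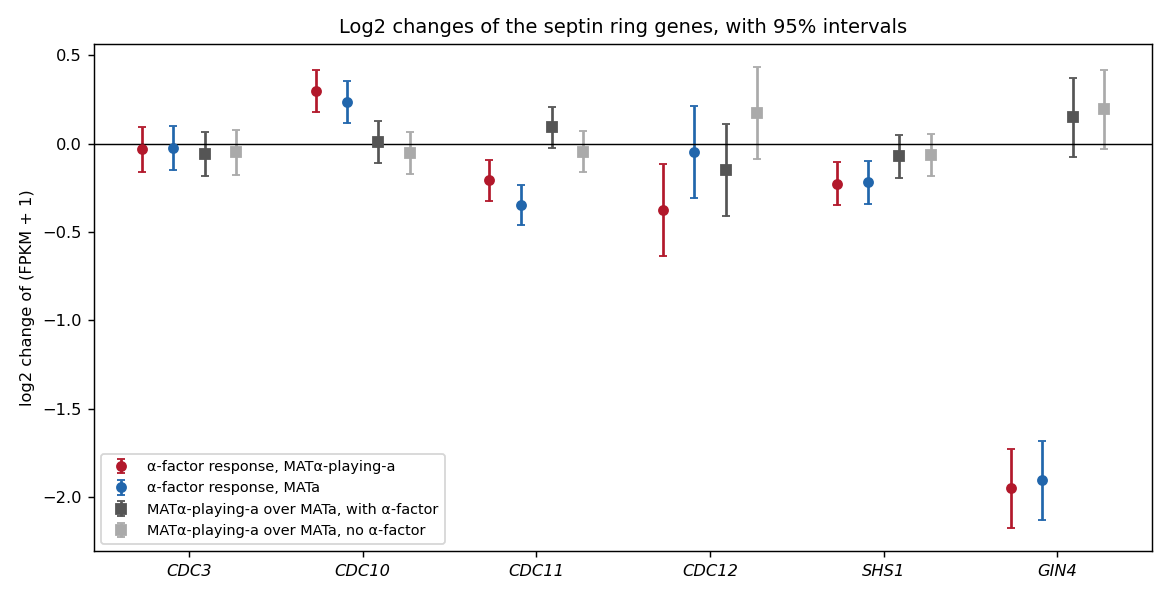
Log2 differences of the septin ring genes with 95% intervals from the limma fit (vertical axis), for the 2 responses to α-factor (stimulated over unstimulated) and the strain difference (MATα-playing-a over MATa) with and without α-factor. GIN4 is near -1.95 and -1.90 in the responses, CDC10 at 0.30 and 0.24, and all intervals of the strain differences reach 0.

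The strains were next compared directly. Of the 6 genes, 0 passed the threshold in the difference between strains under α-factor, in the difference without α-factor and in the difference of the responses, where 2.21%, 0.953% and 0.484% of all tested genes were called by limma. At an unadjusted p below 0.05 the count was also 0 of 6 in each, where 11.3%, 12.5% and 11.7% of all tested genes passed. Under α-factor the difference (MATα-playing-a over MATa, log2) was 0.15 for GIN4 (95% interval -0.07 to 0.37) and -0.15 for CDC12 (-0.41 to 0.11), and for the other 4 genes it lay between -0.07 for SHS1 and 0.09 for CDC11. Without α-factor it was 0.20 for GIN4 (-0.03 to 0.42) and 0.17 for CDC12 (-0.09 to 0.43), and between -0.06 and -0.05 for the other 4. The intervals leave room for differences of this size in GIN4 and CDC12. Under α-factor the 3 libraries of MATα-playing-a lay wholly above those of MATa for CDC11, as 10.8% of all tested genes did, and wholly below them for CDC3 and SHS1, as 7.48% did (18.3% in either direction). Without α-factor they lay wholly above for CDC12 and GIN4, as 8.94% of all tested genes did (18.7% in either direction). The difference of the responses was -0.05 for GIN4 (-0.36 to 0.27), 0.06 for CDC10 (-0.11 to 0.23) and 0.14 for CDC11 (-0.02 to 0.30).

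Per length, in FPKM, SHS1 was the lowest of the 5 septins and GIN4 below it in all 4 groups. In stimulated MATα-playing-a cells the order of mean levels was CDC10, CDC3, CDC11, CDC12, SHS1 and GIN4, where CDC10 overlapped CDC3 and CDC11 overlapped CDC12. In unstimulated MATα-playing-a cells it was CDC3, CDC12, CDC11, CDC10, SHS1 and GIN4, and CDC12 overlapped CDC11 and CDC11 overlapped CDC10. In stimulated MATa cells it was CDC3, CDC10, CDC12, CDC11, SHS1 and GIN4, with overlap between CDC3 and CDC10 and between CDC12 and CDC11. In unstimulated MATa cells it was CDC3, CDC11, CDC10, CDC12, SHS1 and GIN4, with overlap from CDC11 to CDC12. CDC10 thus stood beside CDC3 in the stimulated groups and below it, close to CDC11 and CDC12, in the unstimulated ones.

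The shares of the 5 septins in their summed FPKM do not depend on how a library was scaled. The sum itself does depend on the scaling and was not computed after rescaling. As deposited, it was 3096 ± 61.1 FPKM in stimulated and 3270 ± 32.6 FPKM in unstimulated MATα-playing-a cells, and 3158 ± 44.1 and 3286 ± 53.8 FPKM in stimulated and unstimulated MATa cells (SD, n = 3 each). CDC10 made up 26.5 ± 1.36% of it in stimulated and 20.4 ± 0.565% in unstimulated MATα-playing-a cells, and 25.8 ± 0.8997% and 21.0 ± 1.01% in stimulated and unstimulated MATa cells. CDC11 made up 19.7 ± 0.704% and 21.5 ± 0.799% in stimulated and unstimulated MATα-playing-a cells and 18.1 ± 0.262% and 22.1 ± 0.351% in the matching MATa cells. CDC3 kept within 23.1% and 26.3% in all 12 libraries, and CDC12 spread from 14.9% to 22.1%. The ratio of CDC10 to CDC11 was 1.31, 1.37 and 1.37 in stimulated and 1.01, 0.926 and 0.904 in unstimulated MATα-playing-a libraries, and 1.43, 1.49 and 1.36 in stimulated and 1.00, 0.909 and 0.939 in unstimulated MATa libraries. The stimulated ratios were all higher than the unstimulated ones; this pair was singled out after its values were seen and was not tested.

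**Figure D3:**
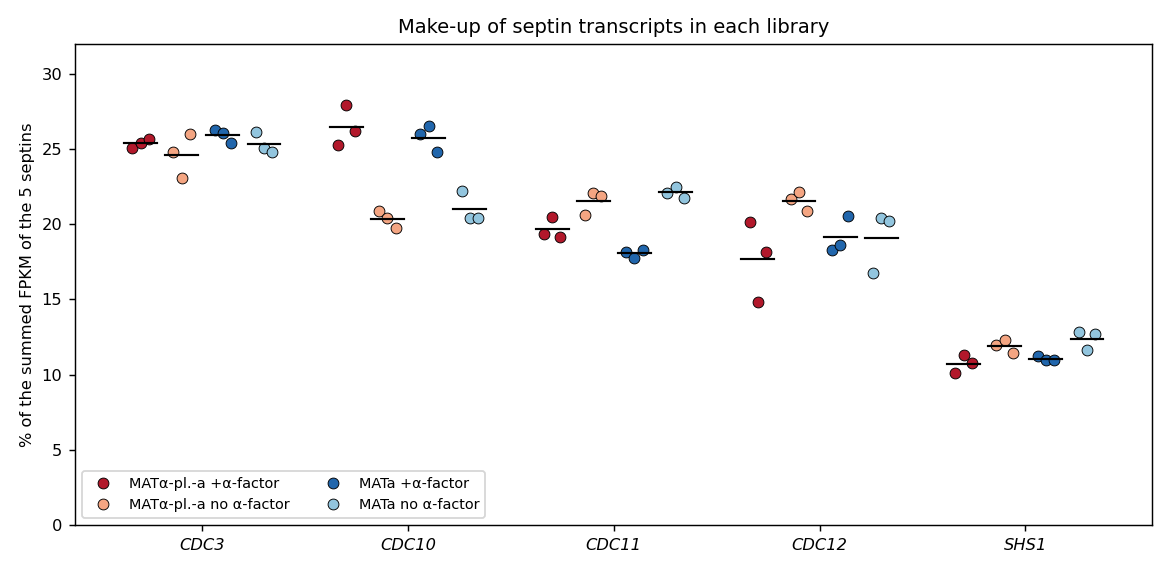
Share of each of the 5 septins (percent of their summed FPKM, vertical axis) in every library (points), with the group mean as a line, for stimulated and unstimulated MATα-playing-a and stimulated and unstimulated MATa cells. The CDC10 share lay between 24.8% and 27.97% in stimulated libraries, against 19.8% to 22.2% in unstimulated ones.

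The ratio of SHS1 to CDC11, the 2 alternative end subunits, was 0.523, 0.551 and 0.561 in stimulated and 0.580, 0.556 and 0.521 in unstimulated MATα-playing-a libraries, and these overlapped. In MATa it was 0.617, 0.616 and 0.600 with α-factor, against 0.580, 0.517 and 0.583 without, and did not overlap. The log2 difference was -0.02 in MATα-playing-a (two-sided exact permutation test, p = 0.8) and 0.13 in MATa (p = 0.1, exact, the smallest that 3 against 3 libraries can give). Without unstimulated MATa replicate 2 the difference in MATa was 0.07.

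The genes around the ring were counted in a list of 37 partners, all of which were tested. In MATα-playing-a 13 were higher, 19 lower and 5 not past the threshold, and in MATa 13 were higher, 16 lower and 8 not past it, that is 32 and 29 of 37 called where 68.9% and 66.6% of all genes were. The counts of each list that follow stand beside 29.8% of all genes higher and 39.1% lower in MATα-playing-a and 28.5% higher and 38.1% lower in MATa, or, after rescaling by median ratios, 34.3% and 33.4% in MATα-playing-a and 32.9% and 32.7% in MATa. Of the 37, 12 were called higher and 16 lower in both strains, 5 were called in one strain only and 4 in neither. The same shares over all tested genes were not computed, so these counts cannot be set against a background.

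Of 7 partners that encode kinases of the ring or parts of the morphogenesis checkpoint, 6 fell in MATα-playing-a and 5 in MATa, as GIN4 did, and none rose, while after rescaling by median ratios 4 fell in MATα-playing-a and, in MATa, 5 fell and 1 rose (HSL7). KCC4, the gene of Gin4's paralog, had 22.6, 17.2 and 19.8 FPKM in stimulated and 80.3, 60.5 and 69.3 FPKM in unstimulated MATα-playing-a libraries (log2 -1.77 ± 0.13, SE; limma adjusted p = 5.12e-07). In MATa it had 19.8, 23.3 and 19.8 FPKM with α-factor and 66.1, 60.5 and 63.6 FPKM without (log2 -1.56 ± 0.13; adjusted p = 1.37e-06). KCC4 overlaps the listed genes YCL023C and YCL022C, and reads could be split among them. HSL7 likewise overlaps the listed gene YBR134W. SWE1, the kinase gene through which the morphogenesis checkpoint holds back Cdk1, fell, with log2 changes of -1.59 in MATα-playing-a and -1.61 in MATa (adjusted p = 1.7e-07 and 1.55e-07). HSL1, whose kinase targets Swe1 for removal at the neck, fell too, with -0.93 in MATα-playing-a and -0.87 in MATa (adjusted p = 1.43e-05 and 2.39e-05).

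The sporulation septins SPR3 and SPR28, which replace some mitotic septins when spores form, rose in both strains at low levels. SPR3 had 17.4, 26.2 and 22.9 FPKM in stimulated and 5.30, 6.76 and 6.81 FPKM in unstimulated MATα-playing-a libraries, and 19.8, 20.7 and 23.0 FPKM in stimulated and 5.03, 7.82 and 4.32 FPKM in unstimulated MATa libraries. SPR28 averaged 30.7 ± 5.87 FPKM in stimulated and 10.9 ± 0.584 FPKM in unstimulated MATα-playing-a cells, and 23.7 ± 4.75 and 9.41 ± 1.29 FPKM in stimulated and unstimulated MATa cells (SD, n = 3 each). Neither gene overlapped between treatments, and the log2 changes were 1.66 and 1.40 in MATα-playing-a and 1.75 and 1.23 in MATa (limma adjusted p = 7.88e-05, 6.47e-05, 5.19e-05 and 0.000181). Their stimulated levels stayed below the lowest mitotic septin, SHS1.

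Of 7 genes of the Cdc42 module, the GTPase system that marks the site where the ring forms, 3 rose and 1 fell in MATα-playing-a, and 4 rose and 1 fell in MATa (4 and 1 in MATα-playing-a and 5 and 0 in MATa after rescaling by median ratios). GIC2, a Cdc42 effector gene, averaged 1198 ± 133 FPKM in stimulated and 582.1 ± 90.8 FPKM in unstimulated MATα-playing-a cells, a log2 change of 1.05, and 1384 ± 134 and 809.5 ± 75.5 FPKM in stimulated and unstimulated MATa cells, a change of 0.77 (limma adjusted p = 1.54e-05 and 0.00017). RGA1 and RGA2, GTPase-activating protein genes for Cdc42, rose by 0.64 and 0.62 in MATα-playing-a and by 0.57 and 0.62 in MATa on the log2 scale (adjusted p between 0.000123 and 0.00473). BEM3, a further gene of a Cdc42 GTPase-activating protein, fell, with log2 changes of -0.37 in MATα-playing-a and -0.24 in MATa (adjusted p = 0.000826 and 0.0142). The BEM3 call in MATa was lost after rescaling by median ratios (adjusted p = 0.111) and without stimulated or unstimulated MATa replicate 2 (adjusted p = 0.0576 and 0.0524). CDC24, the exchange factor gene, had an adjusted p of 0.0448 in MATa, and this call was lost in 9 of the 12 fits that left out 1 library and in 4 of the 10 other alternatives (adjusted p up to 0.14). It did not pass in MATα-playing-a (adjusted p = 0.145), except after rescaling by median ratios (adjusted p = 0.0126). CDC42 itself, which overlaps the listed gene YLR230W, did not pass in either strain, at log2 0.02 and -0.14.

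Of 14 genes for septin binding, assembly and modification, 6 rose and 8 fell in MATα-playing-a, and 5 rose and 6 fell in MATa. The 6 that rose include ULP1, a SUMO protease gene (adjusted p = 0.047 in MATα-playing-a), whose call there was lost in 9 of the 12 fits that left out 1 library and in 4 of the 10 other alternatives. AFR1, whose product binds Cdc12 and shapes the mating projection, had 899, 615 and 914 FPKM in stimulated and 58.9, 89.2 and 64.6 FPKM in unstimulated MATα-playing-a libraries, and 747, 837 and 989 FPKM in stimulated and 44.9, 60.1 and 58.8 FPKM in unstimulated MATa libraries. The stimulated values were far above all unstimulated ones, with log2 changes of 3.49 ± 0.19 and 3.95 ± 0.19 in MATα-playing-a and MATa (SE; limma adjusted p = 4.49e-08 and 1.73e-08). BUD4, an anillin-like gene for axial budding that binds the septin collar, averaged 17.8 ± 3.40 FPKM in stimulated and 103 ± 8.84 FPKM in unstimulated MATα-playing-a cells, and 20.4 ± 1.11 and 87.9 ± 2.10 FPKM in stimulated and unstimulated MATa cells, with log2 changes of -2.48 and -2.06 (adjusted p = 2.86e-08 and 1.32e-07). AXL2, a further axial budding gene, fell, with log2 changes of -1.12 in MATα-playing-a and -0.98 in MATa, and so did NBA1, a gene of a bud neck protein, with -1.09 and -0.99 (limma adjusted p of at most 7.94e-07 for both genes in both strains). AXL2 overlaps the listed gene YIL141W.

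Of 7 genes whose products are recruited to the ring, 2 rose and 4 fell in each strain. HOF1, an F-BAR protein gene of cytokinesis, had 8.06, 6.89 and 10.3 FPKM in stimulated and 159.97, 142 and 161 FPKM in unstimulated MATα-playing-a libraries, and 5.03, 6.05 and 6.34 FPKM in stimulated and 149, 125 and 141 FPKM in unstimulated MATa libraries. HOF1 was thus low in every stimulated library, with log2 changes of -4.06 in MATα-playing-a and -4.36 in MATa (limma adjusted p = 1.29e-09 and 7.31e-10). MYO1, the myosin gene of the contractile ring, fell, with log2 changes of -1.02 in MATα-playing-a and -0.65 in MATa (adjusted p = 2.17e-05 and 0.000707). CHS3, a chitin synthase gene, rose, with log2 changes of 1.23 and 1.17 (adjusted p = 2.31e-05 and 3.59e-05). Between strains, NIS1, a gene of a bud neck protein that binds septins, was the 1 partner of 37 called under α-factor (log2 0.49, limma adjusted p = 0.00304). Of all tested genes, 2.21% were called there. NIS1 was also the 1 partner called in the difference of the responses, where 0.484% of all tested genes were called. In that contrast 6 of 37 (11.7% of all genes) had an unadjusted p below 0.05. The NIS1 call in the difference of the responses was lost in 9 of the 12 fits that left out 1 library and with either replicate block. No partner was called by limma in the strain difference without α-factor, where 0.953% of all tested genes were called. There 3 of 37 (12.5% of all genes) had an unadjusted p below 0.05.

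**Figure D4:**
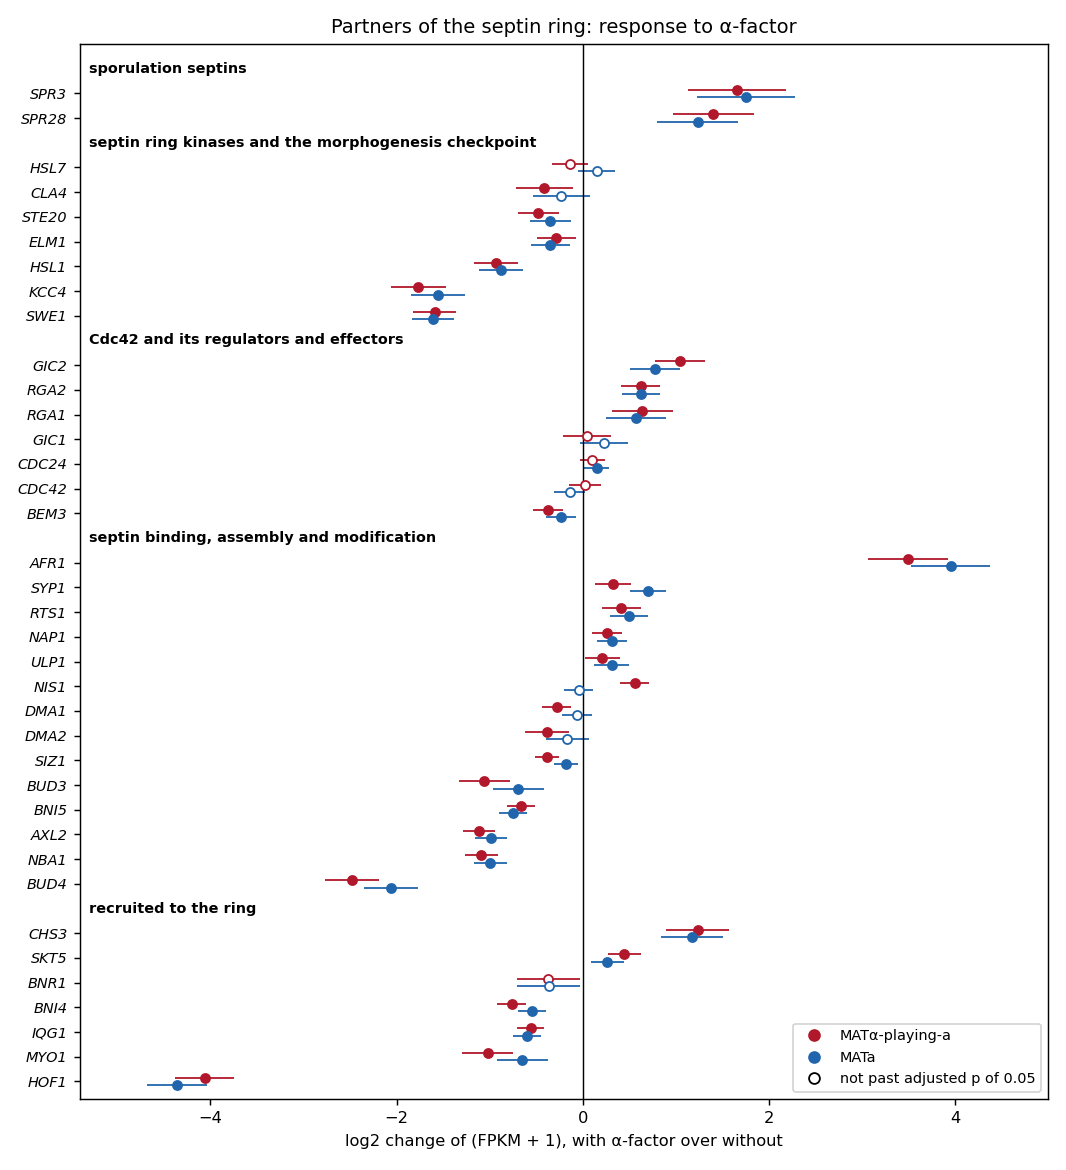
Log2 change under α-factor (horizontal axis, stimulated over unstimulated, with 95% intervals) of the 37 partner genes in MATα-playing-a and MATa cells, open symbols for changes with an adjusted p of 0.05 or more. AFR1 (3.49 and 3.95) and HOF1 (-4.06 and -4.36) stand at the ends of the axis.

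The genes whose log2(FPKM + 1) followed each septin ring gene most closely over the 12 libraries were found among 6410 genes with a mean of at least 10 FPKM. The 12 libraries come from 2 treatments, and a change with treatment that 2 genes share raises their r. CDC3 overlapped between treatments in both strains, and CDC12 did in MATa. For every gene r is given as a description without a test. For GIN4 they were SPC97, of the γ-tubulin complex, POL1, of DNA polymerase α, and SKG6, all with Pearson r = 0.997. For CDC10 they were CUP2 (0.991), ERV29 (0.987) and YPI1 (0.986). For CDC11 the closest was NOP16 (0.982), for CDC12 SEC23 (0.974), for SHS1 NAT2 (0.971) and for CDC3 PMT6 (0.796). CDC3, with the smallest log2 changes of the 6, had the lowest value.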

How the data were processed

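Hot-phenol RNA from the 12 samples was sequenced as a single multiplexed lane, per the labels. The deposited tables, 1 per library, hold FPKM for 7126 genes, and no other deposited measurement was used. CASAVA 1.8.2, TopHat 1.1.4 and Cufflinks 0.9.3 are named in the submitters' processing notes, and the genome build is not given in the sources used here. Multiplied by gene length and summed, the deposited FPKM exceed the total that the unit permits by a factor of 5.02 to 6.22, so some scaling of unknown source is present. A search of low values for steps of whole reads found none clearly stronger than in blurred values (2.58 against 2.09 at the widest gap), and the depth per library is unknown. Between 574 and 752 genes were listed at 0 per library.

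All genes averaging 1 FPKM or more were analysed as log2(FPKM + 1), and folds are on that scale. A model of the 4 group means was fitted to the 12 libraries with limma 3.58.1 in R 4.3.3 (eBayes with trend), after the script had been tested on simulated data. It gave both responses, both strain differences (MATα-playing-a over MATa) and the difference of the responses (MATα-playing-a minus MATa), with two-sided p adjusted over all tested genes at a threshold of 0.05. The labels call the replicates biological. The p-values set differences between group means against a spread pooled over the 4 groups and pulled toward that of genes with similar levels. Stimulated and unstimulated portions of a culture were treated as independent, because the labels do not say which libraries share a culture. Promoter windows came from the RefSeq R64 genome, and ratios and figures from Python 3.11.15. Named were the 6 septin ring genes, up to 3 partners per list and strain with the largest change past the threshold, AFR1, SPR3, SPR28, KCC4 and HSL1 whatever their values, partners past the threshold by at least 0.5 in the other contrasts, and genes most like each septin ring gene. BEM3, CDC24, CDC42, HSL7 and ULP1 were named after their values were seen, as were partners named only for a promoter motif. The members and lists were chosen with earlier results of these data known. Alternatives were pseudocounts of 0.1 and 10, no filter or a mean of 10 FPKM, median-ratio and quantile scaling, replicate blocks, separate fits, no trend, and each library left out.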

Additional observations from a re-analysis of the deposited data

Results flagged for a closer look

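NIS1, the gene of a bud neck protein that binds septins, differed between the strains in its response to α-factor. It had 594, 591 and 558 FPKM in stimulated and 399, 366 and 419 FPKM in unstimulated MATα-playing-a libraries, and 377, 445 and 420.2 FPKM in stimulated and 422, 426 and 431 FPKM in unstimulated MATa libraries. The log2 change was 0.56 in MATα-playing-a and -0.05 in MATa, and the difference of the responses was 0.60 (limma adjusted p = 0.0256). Over the alternatives the adjusted p ranged from 0.015 to 0.11, and the call was lost in 9 of the 12 fits that left out 1 library and with either replicate block.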

How the results depend on the processing

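Of 4601 values of single genes under the alternatives, 4524 kept their direction and side of the threshold, 54 lost a call, 22 gained one and 1 reversed. The count of septin ring genes called in MATα-playing-a was 2 after rescaling by median ratios, against 5, while 67.7% of all genes were called, against 68.9%. It was 4 to 5 with a library left out, and the counts in MATa and between strains did not change with one left out. Partners called between strains under α-factor were 2 after quantile normalisation, against 1, and HOF1 then reversed to -1.11 (adjusted p = 0.0452), against 0.45 (adjusted p = 0.208); the cause was not tested. Partners called between strains without α-factor ranged from 0 to 1 with a library left out, the 1 coming without unstimulated MATα-playing-a replicate 3.

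Same-numbered libraries deviated from their group means with correlations from -0.21 to 0.25, not all above 0.1 in any comparison. The main fit therefore did not pair libraries by number. These correlations run over all tested genes, and a batch that same-numbered libraries share for some genes only was not tested. With a replicate block the counts of septin ring genes called were 5 and 4 in MATα-playing-a and MATa and 0 between strains, and no call on a septin ring gene differed. With the replicate block, and likewise with a culture replicate block, partners called in the difference of the responses were 0, against 1. With a library left out they ranged from 0 to 1. Over all genes, calls between strains under α-factor ranged from 85 to 153 with a library left out, against 146, and were lowest without stimulated MATa replicate 1. Calls without α-factor were 33 in a fit to the compared libraries alone, against 63. Calls in the difference of the responses were 15 with the culture block and 21 to 46 with a library left out, against 32. Depth is unknown, so counting error could not be set beside the small changes of the septins.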
